A study of Homo sapiens with 6 samples.

Results

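The microRNAs miR-103 and miR-107 are made from introns of the pantothenate kinase genes PANK1, PANK2 and PANK3, whose enzymes carry out the first step of coenzyme A synthesis. The entries were picked by name from the small RNA count tables, which gave hsa-miR-103a-3p, hsa-miR-103a-2-5p, hsa-miR-103b and hsa-miR-107, 4 of the 28846 small RNAs listed. The tables come from K562 cells, an established human leukemia line with erythroid traits. Control cells carried the lentiviral vector SIEW, which expresses GFP alone, and RUNX1 cells carried SIEW RUNX1, which expresses human RUNX1 together with GFP. Each condition had 3 samples from independent transductions, RNA was taken after 10 days in culture, and every sample comes from this 1 cell line. The study asks which small RNAs differ upon over-expression of RUNX1, a transcription factor of blood cell development. The small RNA counts do not measure the RUNX1 transcript, the RUNX1 protein or the PANK transcripts, so neither the over-expression nor the host genes could be checked in them. In such bulk RNA, more cells with a change and a larger change per cell cannot be told apart.

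A microRNA is cut from a hairpin precursor in 2 steps, first by Drosha in the nucleus and then by Dicer in the cytoplasm, and 1 arm of the resulting duplex is loaded into an Argonaute protein as the guide. The guide finds messenger RNAs mainly through its seed, bases 2 to 8 from the 5′ end, and lowers their stability and translation. In miR-103 and miR-107 the 3p arm is the usual guide. These microRNAs are known for targeting DICER1, the enzyme that makes them, and for work on insulin sensitivity in liver and fat. They belong to the miR-15/miR-107 group, whose members share a short run of bases at the 5′ end.

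The 4 mature sequences are shown first because the counts of miR-103a-3p and miR-107 depend on a single base. They are from the RefSeq microRNA table for GRCh38.p14, in which all 4 names were found, with the seed in capitals.
hsa-miR-103a-3p: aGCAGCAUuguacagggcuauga
hsa-miR-107: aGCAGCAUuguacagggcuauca
hsa-miR-103a-2-5p: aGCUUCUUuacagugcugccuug
hsa-miR-103b: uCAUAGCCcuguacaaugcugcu

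Each of them is 23 bases long. miR-103a-3p and miR-107 have the same seed, GCAGCAU, and the same first 21 bases. Their 1 difference is G22C, counted from the 5′ end with the base of miR-103a-3p first. A read that stops at base 21 can therefore not be assigned to either. miR-103a-3p is encoded in 2 places, MIR103A1 and MIR103A2, while miR-107 and miR-103a-2-5p have 1 place each. miR-103b is the exact complement of miR-103a-3p over all 23 bases and is annotated on the opposite strand of both miR-103a genes, as MIR103B1 and MIR103B2.

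The 3 precursors on the PANK strands are printed to show how alike the arms are, with the annotated mature arms in capitals.
MIR103A1: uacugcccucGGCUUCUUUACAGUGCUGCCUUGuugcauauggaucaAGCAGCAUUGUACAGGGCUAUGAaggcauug
MIR103A2: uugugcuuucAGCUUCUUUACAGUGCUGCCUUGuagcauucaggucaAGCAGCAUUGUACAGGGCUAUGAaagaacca
MIR107: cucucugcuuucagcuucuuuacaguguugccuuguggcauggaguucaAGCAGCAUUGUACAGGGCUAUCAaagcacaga

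Around miR-103a-3p, MIR103A1 and MIR103A2 share 3 further bases before the mature sequence and 1 after it. Longer reads could thus tell these genes apart, and a read of the 23 mature bases could not. The 5p arms are almost as close. miR-103a-2-5p differs from the 5p arm of MIR103A1 by A1G and from the matching stretch of MIR107 by C16U, with positions counted from the 5′ end of miR-103a-2-5p and its base first.

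In the annotation of GENCODE release 29 on GRCh38, each precursor lies inside an intron of its PANK gene on the strand of that gene. MIR103A1 is at chr5:168560896-168560973 on the minus strand, in intron 5 of PANK3, which is 2235 bases long. MIR103A2 is at chr20:3917494-3917571 on the plus strand, in an intron of 1620 bases that all 6 coding transcripts of PANK2 across this place have. MIR107 is at chr10:89592747-89592827 on the minus strand, in an intron of 4419 bases that all 3 coding transcripts of PANK1 there have. The distances from the 5′ end of the intron to the precursor were 419 bases in PANK3, 443 in PANK2 and 369 in PANK1. No exon of these coding transcripts overlaps a precursor.

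In the host genes' promoters, the RUNX core motif TGTGGT was searched on both strands, from 250 bases before each start site in the RefSeq promoter table to 50 after it. None of the 8 start site windows of PANK1, PANK2 and PANK3 holds these letters, while 13.1% of all 35116 windows do. Some of the PANK2 windows overlap, and so few windows cannot show whether the motif is rarer here than elsewhere. This describes these exact letters in these windows alone.

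The libraries held from 1618248 to 15245007 counts, the fewest in control replicate 1 and the most in RUNX1 replicate 1. Small RNA other than microRNA took more of the control libraries, as microRNAs made up 81.4 to 82.1% of the control counts and 89.5 to 91.9% of the RUNX1 counts. In the same libraries miR-10a-5p held 7.08 to 8.56% of the microRNA counts in control and 27.4 to 32.1% in RUNX1 samples. Counts were scaled with edgeR's TMM factors, which assume that most small RNAs do not change, and are given as counts-per-million values (CPM), with the scaled library as the total. These factors were 1.23 to 1.31 in control and 0.735 to 0.866 in RUNX1 samples, so the scaling itself differs between the conditions. RUNX1 replicate 3 stood apart from the other RUNX1 samples. It was the RUNX1 sample nearest to the controls for 193 of the 265 up-regulated small RNAs (72.8%) and for 169 of the 280 down-regulated ones (60.4%).

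The erythroid identity of the cells was read from 4 microRNAs, miR-451a, miR-144-3p, miR-144-5p and miR-486-5p, which were detected in every sample with a summed level of 4430 to 5060 CPM in control and 2330 to 3700 CPM in RUNX1 samples. miR-144-3p rose and the other 3 fell. The study reported that miR144 was not up-regulated by quantitative PCR (q-RT-PCR) and differed there in direction from the sequencing. Of 8 microRNAs that mark other cell types, the neuronal miR-124-3p had no count in any library. Of the others, miR-200c-3p and miR-375 were detected in every library and rose. miR-1, with 0, 1 and 0 control counts, and miR-205-5p, with 0, 9 and 8, passed the filter on low counts only through the RUNX1 samples, where they were higher. The remaining 3 had from 6 to 50 counts in all. The summed level of the 8 was 80.3 to 92.3 CPM in control and 273 to 326 CPM in RUNX1 samples. Their part in the changes of miR-103 and miR-107 was not tested.

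Upon RUNX1 over-expression, miR-107 and miR-103a-3p were both up-regulated with TMM scaling, miR-107 by 2.53-fold and miR-103a-3p by 1.63-fold. The call of miR-103a-3p was lost with library size alone. The passenger arm miR-103a-2-5p had a 2.40-fold higher level on very few counts, and miR-103b was not detected. A small RNA is called altered here when edgeR's quasi-likelihood test gives P under 0.05 and the log2 fold change is 0.5 or more in size. By this rule 3 of the 4 entries were up-regulated, and the other, miR-103b, had no counts to test. Of all 947 small RNAs tested, 28.0% were up-regulated and 29.6% down-regulated. Altered calls of either direction thus covered 57.6% of the 947, while TMM assumes that most small RNAs do not change. Of the 598 microRNAs tested, 200 rose and 135 fell. The 3 entries are not independent of each other, since miR-103a-3p and miR-107 may share reads and miR-103a-2-5p comes from a precursor of miR-103a-3p. Which entries could be tested also depended on the filter on low counts. Its cutoff of 1.42 CPM, taken before the TMM scaling, was met by miR-103a-3p and miR-107 in all 6 samples, while miR-103a-2-5p met it in all 3 RUNX1 samples but in 2 of the 3 controls.

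miR-107 is the guide from the PANK1 intron and was the most abundant of the 4. Control replicates 1, 2 and 3 had 246, 976 and 1051 counts of it, and the RUNX1 replicates, in the same order, had 4251, 2269 and 1537. Scaled, the controls stood at 118, 121 and 138 CPM and the RUNX1 samples at 369, 363 and 224 CPM. The conditions did not overlap, and RUNX1 replicates 1 and 2 lay well above RUNX1 replicate 3. Of the 947 small RNAs tested, 31.4% had every RUNX1 sample above every control. The control mean was 126 ± 11.1 CPM and the RUNX1 mean 319 ± 81.7 CPM (SD, n = 3 each). The log2 fold change was 1.34 ± 0.201 (SE), and its Benjamini-Hochberg adjusted p in the quasi-likelihood test of edgeR was 0.000416. Without RUNX1 replicate 3 the log2 fold change was 1.62 ± 0.106 (SE). Among the 2576 named microRNAs, miR-107 held ranks 116 to 122 by count in the controls and rank 92 in RUNX1 replicates 1 and 2, with RUNX1 replicate 3 in between.

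miR-103a-3p, the guide from the PANK2 and PANK3 introns, was counted 57, 228 and 187 times in the controls and 559, 283 and 250 times with RUNX1. This came to 27.2, 28.3 and 24.6 CPM for the controls and to 48.5, 45.3 and 36.5 CPM for the RUNX1 samples. Every RUNX1 sample was above every control, and RUNX1 replicate 3 was again the lowest of its condition. The control mean was 26.7 ± 1.89 CPM and the RUNX1 mean 43.4 ± 6.21 CPM (SD, n = 3 each). The log2 fold change was 0.70 ± 0.159 (SE), with an adjusted p of 0.00422 in the edgeR test. It ranked 213 to 229 in the controls and 201 to 211 in the RUNX1 samples. Both the size of this change and its call rest on the scaling, and the call was lost with library size alone. With library size alone, and no TMM factors, the log2 fold change of miR-103a-3p was -0.01 and that of miR-107 was 0.62, while the median over all tested small RNAs moved from -0.06 to -0.76. Relative to that median, miR-103a-3p stood 0.77 higher on the log2 scale with TMM and 0.75 higher with library size alone, and miR-107 stood 1.40 and 1.38 higher. A change of scaling moves all log2 fold changes by nearly the same amount. The distance to the median therefore hardly depends on it and does not show which scaling is right. From TMM to library size alone, the altered small RNAs went from 265 up-regulated and 280 down-regulated to 120 and 521. TMM factors computed on microRNAs alone gave 213 and 345, and left miR-103a-3p at 0.51 and miR-107 at 1.14, both still up-regulated.

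**Figure D1:**
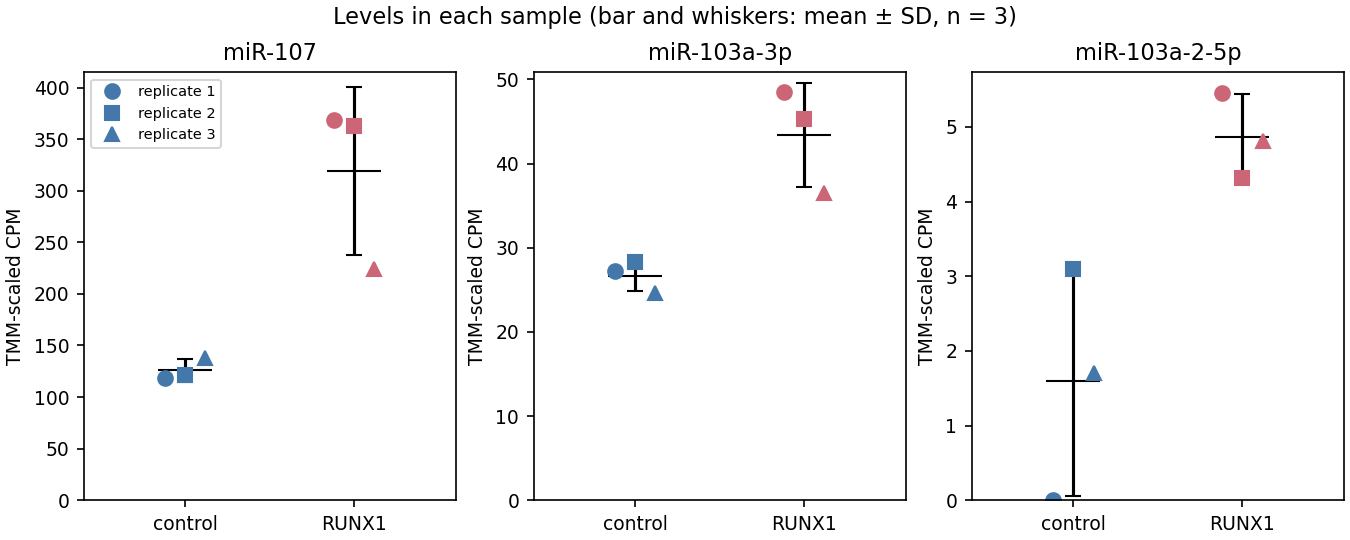
TMM-scaled CPM (linear axes from 0) of miR-107, miR-103a-3p and miR-103a-2-5p in each control and RUNX1 sample, with markers for the replicate number and bars for the mean ± SD of 3 samples. In each panel the RUNX1 samples lie above the controls, and for miR-107 RUNX1 replicate 3, at 224 CPM, lies below replicates 1 and 2, at 369 and 363 CPM.

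The other arm of MIR103A2, miR-103a-2-5p, is normally discarded when the duplex is loaded. The controls had 0, 25 and 13 counts (0, 3.1 and 1.71 CPM), and the RUNX1 samples had 63, 27 and 33 (5.46, 4.32 and 4.81 CPM). In control replicate 1, the shallowest library, the limit that a count of 0 allows is 3 counts, or 1.43 CPM. The RUNX1 samples all lay above the controls, but the controls spread as widely as their mean, 1.6 ± 1.55 CPM, against 4.87 ± 0.574 CPM with RUNX1 (SD, n = 3 each). The log2 fold change was 1.27 ± 0.456 (SE), with an adjusted p of 0.0384 in the edgeR test. It passed neither with library size alone, at 0.57, nor without control replicate 3, at 1.17, and without control replicate 2 it was 1.95. The size of this change is thus poorly fixed at 161 counts in all.

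miR-103b, the antisense entry, had no count in any of the 6 libraries. This allows a share of up to 0.000185% of the counts in the shallowest library and 1.97e-05% in the deepest, for counting error only. The complementary miR-103a-3p was counted 1564 times over the same libraries. Of these 2 complementary entries, only the one annotated on the strand of PANK2 and PANK3 thus had counts. The counts are given by name, so they do not show from which place the reads came or whether any were dropped.

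Within a sample, counts can be compared without any scaling between libraries. The log2 ratio of miR-103a-3p to miR-107 was -2.1, -2.1 and -2.49 for the controls and -2.93, -3 and -2.62 for the RUNX1 samples. miR-107 was thus counted more often than miR-103a-3p in all 6 samples, and the gap was wider in the RUNX1 samples. Control replicate 3 and RUNX1 replicate 3 came closest to each other. It averaged -2.23 ± 0.225 over the controls and -2.85 ± 0.203 with RUNX1 (SD, n = 3 each), a difference of -0.62 on the log2 scale (p = 0.1 by a two-sided exact permutation test, which cannot go lower with 3 samples a group). Over the 6 ways to leave out a replicate this difference ranged from -0.75 to -0.54.

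The log2 ratio of miR-103a-3p to miR-103a-2-5p was 6.85, 3.16 and 3.8 for the controls, against 3.14, 3.37 and 2.9 with RUNX1. The 3p entry can hold reads from MIR103A1 and MIR103A2, and the 5p entry belongs to MIR103A2 alone. The ratio is thus not that of the arms of 1 hairpin. The 3p entry was the more abundant in every sample. The conditions overlapped, and the difference of -1.47 did not pass (two-sided exact permutation test, p = 0.2). It rested on control replicate 1, where the 5p arm had no count, and was -0.34 without that sample.

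Summed over miR-103a-3p and miR-107, the counts no longer depend on how reads of the shared 21 bases were divided between these entries, though such reads may also have been dropped. The sum was 303, 1204 and 1238 counts for the controls (145, 149 and 163 CPM) and 4810, 2552 and 1787 counts with RUNX1 (417, 408 and 261 CPM). Entered as 1 small RNA in the fit, the sum rose by 1.25 ± 0.190 (SE) on the log2 scale, with an adjusted p of 0.000463 in the edgeR test. As a share of all microRNA counts it was 0.0228, 0.024 and 0.0244% for the controls and 0.0343, 0.0329 and 0.0252% with RUNX1. RUNX1 replicate 3 was close to the highest control here. The means were 0.0237% ± 0.000814 and 0.0308% ± 0.0049 (SD, n = 3 each), 0.00707 percentage points apart (two-sided exact permutation test, p = 0.1, the smallest possible). With miR-10a-5p taken out of the total the gap was 0.0186 percentage points.

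**Figure D2:**
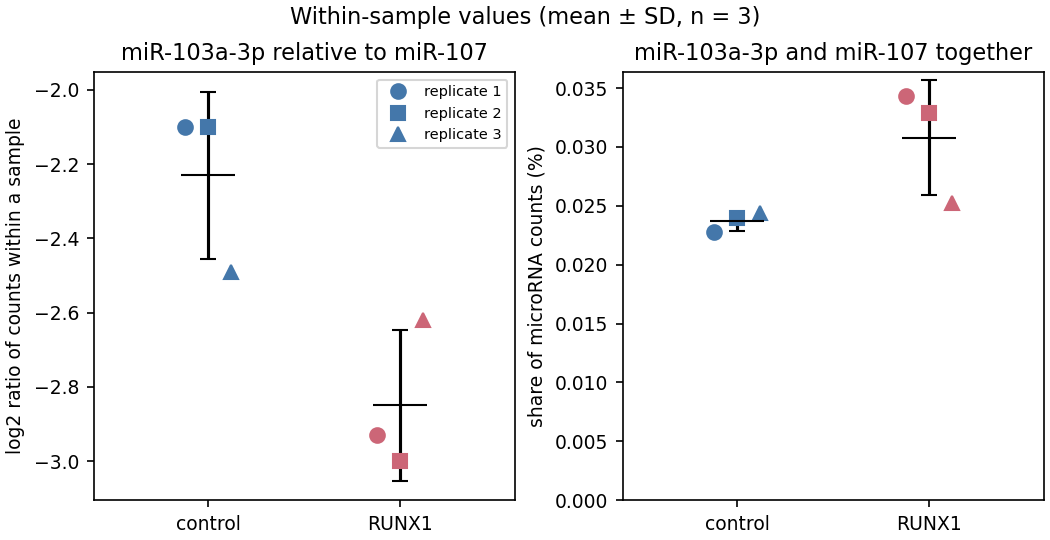
Left, the log2 ratio of miR-103a-3p to miR-107 counts within each sample; right, the share of microRNA counts (%, axis from 0) on both together, with markers for the replicate number and bars for the mean ± SD of 3 samples. The ratio is lower in RUNX1 samples, from -3 to -2.62, than in controls, from -2.49 to -2.1, and the share of RUNX1 replicate 3, 0.0252%, is near the highest control, 0.0244%.

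How reads with more than 1 possible origin were counted is not given in the sources used here. The tables close with 5 lines named as the counting tool htseq-count names its rejected reads, and these hold 0 counts in all libraries. Because miR-103a-3p has identical copies, the counts were set beside the number of places that encode each mature sequence, a comparison chosen after the values were seen. Of the 2576 named microRNAs in the tables, 2262 were found in the RefSeq table. Of those with 1 place, 505 of 2102 (24.0%) had enough counts to be tested, and of those with 2 or more places 15 of 160 (9.4%). Among the tested microRNAs the median total was 475 counts for 1 place and 421 for 2 or more. Being tested required counts, so these medians leave out entries with few and cannot show whether the classes differ. miR-103a-3p was counted 1564 times in all, and 5 of the 15 tested microRNAs with several places had more. The relative miR-16-5p, also encoded in 2 places, had 305 counts, while miR-15b-5p, which is encoded beside a copy of miR-16 and has 1 place, had 45905. The highest total with exactly 2 places was 982584 counts. A total does not show how many reads an entry lost. The part of read assignment in the low level of miR-103a-3p was not tested, and its level against that of miR-107 is uncertain.

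The other microRNAs of the miR-15/miR-107 group share the letters AGCAGC with miR-103 and miR-107. In miR-103a-3p and miR-107 these letters begin at base 1, and in the 8 others at base 2, so that the seeds are offset by 1 base. These 4 sequences are shown to make the offset visible, again with the seed in capitals.
hsa-miR-15a-5p: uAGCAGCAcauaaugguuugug
hsa-miR-16-5p: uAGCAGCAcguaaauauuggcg
hsa-miR-424-5p: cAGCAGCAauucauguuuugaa
hsa-miR-503-5p: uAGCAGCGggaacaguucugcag

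miR-15a, miR-15b, miR-16, miR-195, miR-424 and miR-497 have the same seed, AGCAGCA, and are known as brakes on the cell cycle through targets such as cyclin D1. Of the 8, 7 had enough counts to test, and 3 of them rose, none fell and 4 did not pass. Over all small RNAs tested 28.0% rose and 29.6% fell, and of the 598 microRNAs tested 200 rose and 135 fell, so that 3 of 7 is not far from the background. Their median log2 fold change was 0.47, beside -0.06 over all small RNAs tested and 0.11 over all microRNAs tested.

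miR-15a-5p rose most within this list, from 464, 480 and 483 CPM for the controls to 1192, 1073 and 756 CPM with RUNX1. Its log2 fold change was 1.08 ± 0.173 (SE), with an adjusted p of 0.000604 in the edgeR test. As for miR-107, RUNX1 replicate 3 was the lowest RUNX1 sample and still above all controls. miR-424-5p, made from a cluster on the X chromosome, rose by 0.61 ± 0.165 (SE), and its samples did not overlap between conditions. miR-497-5p rose by 0.57 ± 0.213 (SE), with overlapping samples, and it no longer passed without control replicate 2 or 3 or without RUNX1 replicate 1 or 2. With library size alone, the values were 0.36 for miR-15a-5p, -0.10 for miR-424-5p and -0.15 for miR-497-5p, and none of these passed both thresholds. With TMM factors from microRNAs alone, miR-424-5p and miR-497-5p also lost their calls, at 0.41 and 0.37. miR-503-5p, from the same cluster as miR-424, stood at 0.47 ± 0.266 (SE) and did not pass, though it did without RUNX1 replicate 3, at 0.74.

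The remaining group members were close to 0. miR-15b-5p, which lies in an intron of SMC4, a condensin gene, lay at 1085, 1033 and 1109 CPM for the controls and at 1280, 1079 and 784 CPM with RUNX1. Its samples overlapped, and the log2 fold change was -0.04 ± 0.176 (SE). That of miR-16-5p was -0.03 ± 0.268 (SE) and that of miR-195-5p -0.14 ± 0.254 (SE). With library size alone all of these 3 passed as down-regulated, at -0.75, -0.74 and -0.85. miR-646 had no counts. The same seed was thus found on entries that rose and on entries that did not pass, and the differences between them were not tested.

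**Figure D3:**
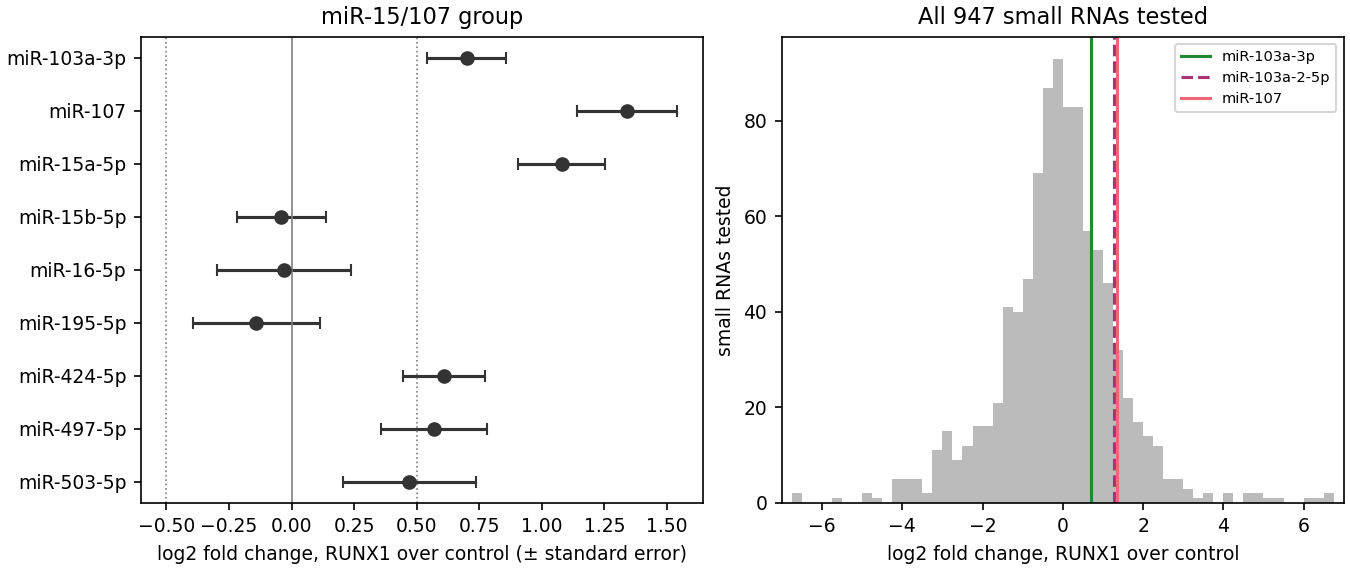
Left, log2 fold changes (RUNX1 over control, ± standard error) of miR-103a-3p, miR-107 and the 7 tested microRNAs of the miR-15/miR-107 group, with dotted lines at the threshold of 0.5 in size; right, the log2 fold changes of all 947 small RNAs tested, with lines at 0.70 for miR-103a-3p, 1.27 for miR-103a-2-5p and 1.34 for miR-107. miR-107 has the highest value of the left panel, next to miR-15a-5p at 1.08, while miR-15b-5p, miR-16-5p and miR-195-5p lie near 0.

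Other microRNAs sit in introns of genes of lipid and energy metabolism, and 6 of their arms were examined beside those of the PANK genes. miR-33a lies in SREBF2 and miR-33b in SREBF1, the genes of the transcription factors that drive sterol and fatty acid synthesis, and miR-378a lies in PPARGC1B, which encodes a coactivator of mitochondrial genes. All 6 were tested. 1 rose, 1 fell and 4 did not pass, beside 28.0% that rose and 29.6% that fell over all small RNAs tested. The median log2 fold change of the 6 was -0.10.

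miR-33a-5p, which represses the cholesterol exporter ABCA1, lay at 11, 11.8 and 13 CPM for the controls and at 23.1, 17.6 and 24.2 CPM with RUNX1. It rose by 0.84 ± 0.186 (SE) on the log2 scale, with an adjusted p of 0.00369 in the edgeR test, and by 0.16, short of the thresholds, with library size alone. miR-378a-3p fell by 1.30 (SE 0.281), and was counted 8, 40 and 29 times in the controls and 17, 10 and 15 times with RUNX1. On the CPM scale its RUNX1 samples all lay below the controls, as they did for 33.5% of the 947 small RNAs tested. The arms miR-33a-3p, miR-33b-5p, miR-33b-3p and miR-378a-5p had log2 fold changes of 0.02, -0.23, 0.08 and -0.31. None of these 4 passed the thresholds with TMM. With library size alone all 4 passed as down-regulated, at -0.68, -0.92, -0.60 and -0.99 in the same order.

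To see which microRNAs varied most like the PANK microRNAs over the 6 samples, log2 CPM patterns were compared after the mean of each was taken off, among 137 other named microRNAs with at least 100 CPM on average. The measure is the root mean square difference over the 6 samples. For miR-107 the nearest were miR-342-3p (0.0871), miR-574-3p (0.0873), miR-23a-3p (0.0956), miR-361-5p (0.114) and miR-652-3p (0.127). Their log2 fold changes lay from 1.18 to 1.46. For miR-103a-3p the nearest were miR-425-5p (0.0809), miR-330-5p (0.0838), miR-425-3p (0.0902), miR-22-3p (0.112) and miR-30d-5p (0.128), with log2 fold changes from 0.55 to 0.80. The lists of 5 have no microRNA in common. The measure takes in the shift between conditions, so similar log2 fold changes within a list follow from it. All of these values come from the same 6 libraries and the same scaling, and they are given as a description.

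**Figure D4:**
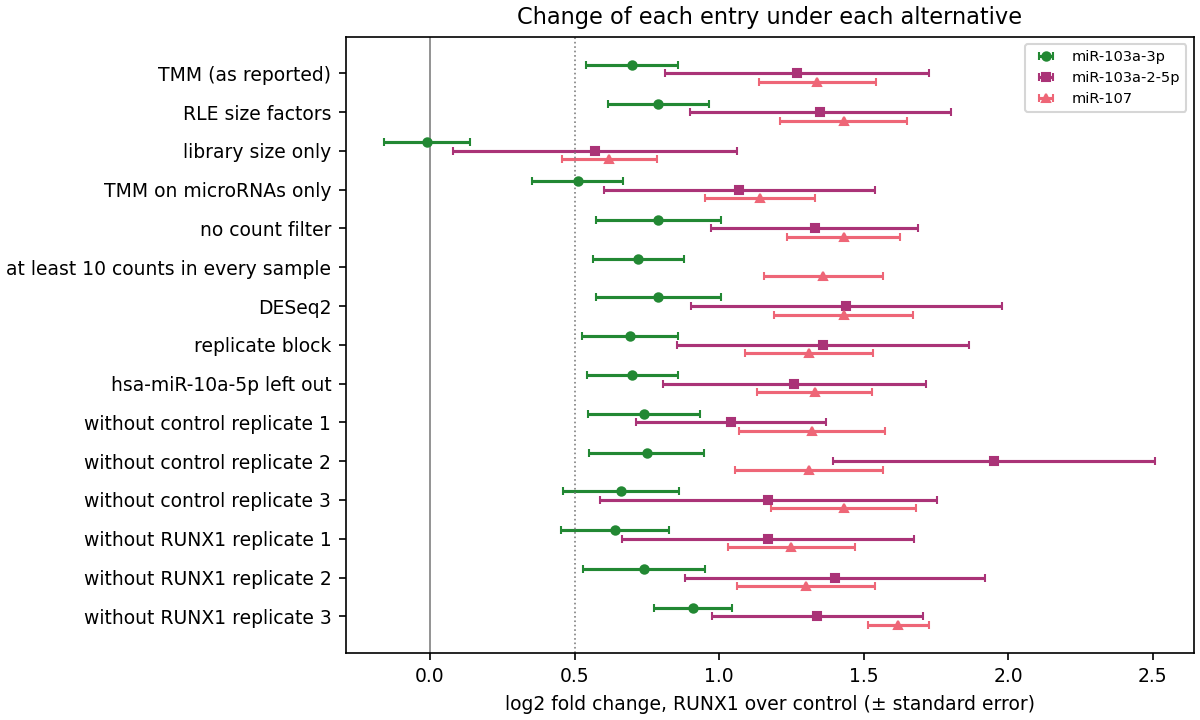
Log2 fold changes (RUNX1 over control, ± standard error) of miR-103a-3p, miR-103a-2-5p and miR-107 as reported and under each alternative normalization, filter, test and left-out replicate, with lines at 0 and at the threshold of 0.5. miR-107 stays from 0.62 to 1.62 and miR-103a-3p falls to -0.01 with library size alone, and no value is drawn for miR-103a-2-5p where at least 10 counts in every sample were required.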

How the data were processed

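Small RNA of 3 control and 3 RUNX1 samples of K562 cells was sequenced by the authors from 1000 ng of total RNA with the TruSeq Small RNA kit. The submitters' processing notes name CASAVA 1.8.2 and hg19, and the study used the OASIS platform for differential expression. The deposited values are raw whole-number counts per annotated small RNA, 1 file per sample. The aligner and the treatment of reads with several matches are not given in the sources used here. Groups and replicate numbers came from the sample titles. Library names carry a different letter in each condition, and if it marks a preparation, preparation and condition cannot be told apart.

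Counts were analysed in R 4.3.3 with edgeR 4.0.16 (filterByExpr with minimum count 10 and minimum total 15, TMM, glmQLFit and glmQLFTest on the condition), with Benjamini-Hochberg adjustment over the 947 small RNAs tested. Standard errors (SE) were obtained from the fold change and the F statistic. Ratios used a pseudocount of 0.5 and exact permutation tests. DESeq2 1.42.0, other scalings and filters, the replicate block and left-out replicates were alternatives. On simulated counts for this comparison (918 small RNAs tested, 189 of them shifted by 1.5 on the log2 scale), edgeR recovered 99.5% of the shifted ones and called 2.88% of the rest. The simulation gave every small RNA the same replicate variability and had no replicate that stood apart. Its shifts were also larger than the change of miR-103a-3p. These shares are therefore not error rates of the calls reported here. Depth was 1618248 to 15245007 counts, and limits at 0 are 3 counts per library. Replicates differed by more than sampling noise. Chi-square per degree of freedom ran from 9.62, between control replicates 1 and 2, to 451, between RUNX1 replicates 1 and 3. Sequences and coordinates are from RefSeq (GRCh38.p14) and GENCODE 29, matched by name and not to hg19 positions.

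The named small RNAs are the 4 entries, 8 microRNAs of the miR-15/miR-107 group, 6 arms from introns of metabolic genes, 12 cell type markers, and the 5 microRNAs most like miR-107 and the 5 most like miR-103a-3p. The entries and lists were chosen with earlier results of these data known.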

Additional observations from a re-analysis of the deposited data

How the results depend on the processing

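Changes of scaling altered several calls. With library size alone, miR-103a-3p had a log2 fold change of -0.01, miR-103a-2-5p 0.57, miR-424-5p -0.10, miR-497-5p -0.15, miR-503-5p -0.24, miR-33a-3p -0.68, miR-33b-3p -0.60, miR-425-5p -0.09, miR-425-3p -0.16 and miR-22-3p -0.02, and 120 small RNAs were up-regulated and 521 down-regulated. With TMM on microRNAs alone, miR-33a-3p had -0.17 and miR-33b-3p -0.10, and miR-424-5p (0.41), miR-497-5p (0.37), miR-425-5p (0.42), miR-425-3p (0.36) and miR-22-3p (just under 0.50) lost their calls. Values near 0 also changed sign with RLE size factors (0.05 for miR-15b-5p, 0.05 for miR-16-5p), without a count filter (0.06 and 0.04) and with DESeq2 (0.05 and 0.06). The cause was not tested. Without hsa-miR-10a-5p in the total, the difference in the share of microRNA counts was 0.0186 percentage points. miR-103a-2-5p gave no value when at least 10 counts were required in every sample, and a ratio to it without a pseudocount could not be made, since control replicate 1 had none.

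Over the 6 fits without 1 replicate each, the log2 fold change ranged from 1.25 to 1.62 for miR-107, from 0.64 to 0.91 for miR-103a-3p, from 1.17 to 1.52 for their sum and from 1.04 to 1.95 for miR-103a-2-5p, which no longer passed without control replicate 3. The ranges that crossed 0 were -0.18 to 0.22 for miR-15b-5p, -0.29 to 0.17 for miR-16-5p, -0.39 to 0.16 for miR-195-5p, -0.15 to 0.14 for miR-33a-3p and -0.05 to 0.22 for miR-33b-3p. The up-regulated small RNAs numbered 253 to 309 and the down-regulated ones 261 to 303. With the replicate block, miR-107 had 1.31, miR-103a-3p 0.69, their sum 1.22 and miR-103a-2-5p 1.36, and 259 small RNAs were up-regulated and 287 down-regulated, with no call changed among the entries named here. The titles give both conditions the same replicate numbers, but the deviations of same-numbered samples had correlations of -0.0283, -0.0834 and 0.0238, so the numbers were not taken as pairs. miR-107 and the sum kept their call under every alternative run. What depth limits is miR-103a-2-5p, with 161 counts over all libraries.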
